A study of Drosophila melanogaster with 6 samples.

Results

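ImpE1, ImpE2, ImpE3, ImpL1 and ImpL2 are ecdysone-inducible genes of Drosophila melanogaster that encode membrane and secreted proteins. They were chosen by gene symbol from a list proposed with the values of these arrays in view, for both comparisons described below. Their differences and adjusted p-values are therefore a description of what the fits over all genes returned, and not independent evidence about the genes. The 5 genes were measured by 8 probe sets, of 11983 genes and 13647 probe sets that name exactly 1 gene. ImpE1 had 4 probe sets and each other gene had 1.

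Ecdysone is the steroid hormone whose pulses drive each larval molt and metamorphosis. It acts through a receptor formed by EcR and usp, which switches on regulators of transcription and, with them or after them, the genes that rebuild epithelia and cuticle. The Imp genes were first found as RNAs on membrane-bound polysomes of hormone-treated imaginal discs, with E for an early and L for a late response. ImpE1 encodes a membrane protein with repeats of the low-density lipoprotein receptor type. ImpE2 and ImpE3 encode apical proteins of disc epithelia. ImpL2 encodes a secreted immunoglobulin-domain protein that binds insulin-like peptides and dampens insulin signalling.

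RNA of whole 1st instar larvae was hybridised to Affymetrix arrays, 3 per genotype. The mutant larvae carried the Kdm4A allele KG04636 over a deletion, written dKDM4A KG04636 / ∆dKDM4A. Kdm4A encodes a histone lysine demethylase. The control larvae carried dKDM4A precise KG06436 / dKDM4A precise NP0618, a pair of alleles labelled precise, taken here to be precise excisions of insertions. Whether KG04636 and KG06436 name 1 insertion is not settled here. Each array held RNA of 200 pooled larvae kept at 25 °C, and the arrays are labelled biological replicates 1, 2 and 3 of each genotype. The labels do not say what arrays with the same number share. In whole larvae, fewer cells of a type and less RNA per cell cannot be told apart.

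Values are RMA values on the log2 scale, where a step of 1 is a 2-fold change. Array medians lay between 5.29 and 5.37. Kdm4A was lower in the mutant, at 3.38 ± 0.08 (SD, n = 3) against 5.30 ± 0.14 (SD, n = 3) in the control (limma adjusted p = 0.00174). Transcripts of muscle, neuron, hemocyte and gut markers had means above 4.40, the lower quartile of the means of all genes, in each case. The exceptions among the organ markers were the fat body genes Fbp1 and Fbp2, with means of 3.94 and 3.91, while the fat body gene apolpp had a mean of 13.6. The yolk protein genes Yp1 and Yp2, marks of adult females, had means of 3.73 and 3.81.

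All of the 5 genes had a lower mean in the mutant, by 1.17-fold to 2.41-fold, beside 6205 of 11983 genes, or 51.8%. Of the 5, 0 were called by limma, where a call is an adjusted p under 0.05. Over all genes the same fit called 19 of 11983 genes, or 0.159%, and 11 of them were lower in the mutant, 0.0918% of all genes. At an unadjusted p under 0.05 there were 2 of the 5, ImpE3 and ImpL2, beside 632 of all genes. The median log2 difference of the 5 genes was -0.81, beside -0.01 over all genes.

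ImpE1 read 8.61, 8.27 and 5.85 in mutant arrays 1, 2 and 3, and 9.69, 9.13 and 7.56 in the control arrays. The array numbered 3 was the low one in both genotypes, so the groups overlapped. Its log2 difference was -1.21 (SE 0.85, limma adjusted p = 0.998), a 2.32-fold lower mean with a 95% interval from 0.57-fold to 9.49-fold. The difference was -0.35 without mutant replicate 3 and -1.83 without control replicate 3.

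ImpE2 read 8.41, 7.18 and 5.93 in mutant arrays 1, 2 and 3, and 9.44, 8.46 and 6.07 in the control arrays. Here too both arrays numbered 3 were lowest, with nearly equal values in the 2 genotypes, and the groups overlapped. The log2 difference was -0.81 (SE 0.97, limma adjusted p = 0.998). It was -0.09 without control replicate 1, -0.19 without mutant replicate 3 and -1.78 without control replicate 3.

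ImpE3 read 6.15, 5.79 and 5.66 in the mutant arrays, and 6.51, 6.71 and 6.16 in the control arrays. Every mutant value lay below every control value, although mutant array 1 and control array 3 were almost level. The log2 difference was -0.60 (SE 0.19, 95% interval -1.04 to -0.15, limma adjusted p = 0.7).

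ImpL1 read 10.4, 10.4 and 7.30 in mutant arrays 1, 2 and 3, and 11.3, 11.3 and 9.32 in the control arrays. The first 2 arrays of each genotype were close together and the arrays numbered 3 stood far below them. The log2 difference was -1.27 (SE 0.97, limma adjusted p = 0.998), and it was -0.24 without mutant replicate 3 and -1.93 without control replicate 3.

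ImpL2 read 9.81, 9.90 and 9.98 in the mutant arrays, and 10.04, 10.17 and 10.18 in the control arrays. All 6 values lay within a narrow band, and the mutant values were all below the control values. Its log2 difference was -0.23 (SE 0.09, 95% interval -0.45 to -0.01, limma adjusted p = 0.894). By Affymetrix naming, the suffix of its probe set marks probes that match several transcripts, although the probe table names ImpL2 alone.

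**Figure D1:**
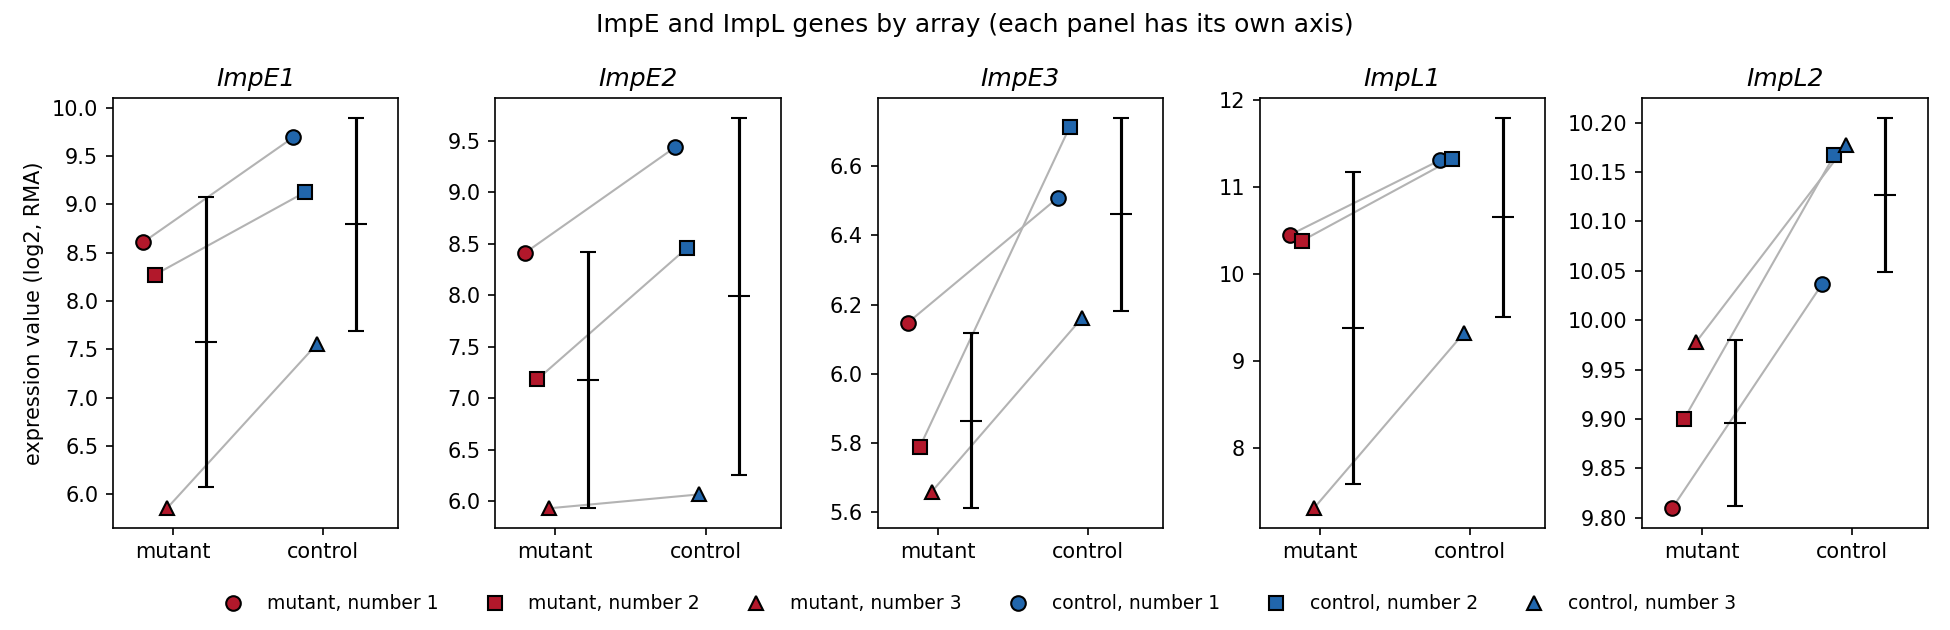
Log2 RMA values of the 5 genes in the 6 arrays, with marker shapes for the replicate numbers, grey lines joining arrays of the same number, and black bars for the group mean with its SD (n = 3). Each panel has its own axis. ImpE1, ImpE2 and ImpL1 were lowest in the arrays numbered 3, and each grey line is lower at its mutant end.

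Groups that did not overlap, with the mutant lower, were found for 2 of the 5 genes, and for 6.23% of all genes. Within arrays of the same number the mutant was lower for each of the 5 genes in 3 of 3 pairs, which held for 19.2% of all genes. For ImpE1 the 3 pairs differed by -1.09, -0.85 and -1.70 on the log2 scale. ImpE2 differed by -1.03, -1.28 and -0.13, with almost no difference in the pair numbered 3. ImpE3 differed by -0.36, -0.93 and -0.50. The pairs of ImpL1 differed by -0.86, -0.94 and -2.02, with the largest difference in the pair where its level was lowest. ImpL2 differed by -0.23, -0.27 and -0.20, the most even of the 5 genes.

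With the replicate number as a block, the SE of the genotype difference fell to 0.17 for ImpE1, 0.22 for ImpE2 and 0.24 for ImpL1. The limma adjusted p was then 0.0564 for ImpE1, 0.111 for ImpL1, 0.154 for ImpE3, 0.26 for ImpE2 and 0.369 for ImpL2. Thus 0 of 5 were called with the block as well, where 98 genes, or 0.818% of all genes, were called and 0.526% were called lower, and all of the 5, beside 1339 of all genes, had an unadjusted p under 0.05. With the block the 95% interval of the log2 difference ran from -1.64 to -0.79 for ImpE1, from -1.86 to -0.68 for ImpL1 and from -1.37 to -0.26 for ImpE2. Without both arrays numbered 3, and with no block, the log2 differences were -0.97 for ImpE1, -1.15 for ImpE2, -0.65 for ImpE3, -0.90 for ImpL1 and -0.25 for ImpL2, and limma called 0 of 5, although 4, beside 863 of all genes, had an unadjusted p under 0.05. ImpL1 had the lowest adjusted p of the 5 in that fit, 0.0791 by limma.

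**Figure D2:**
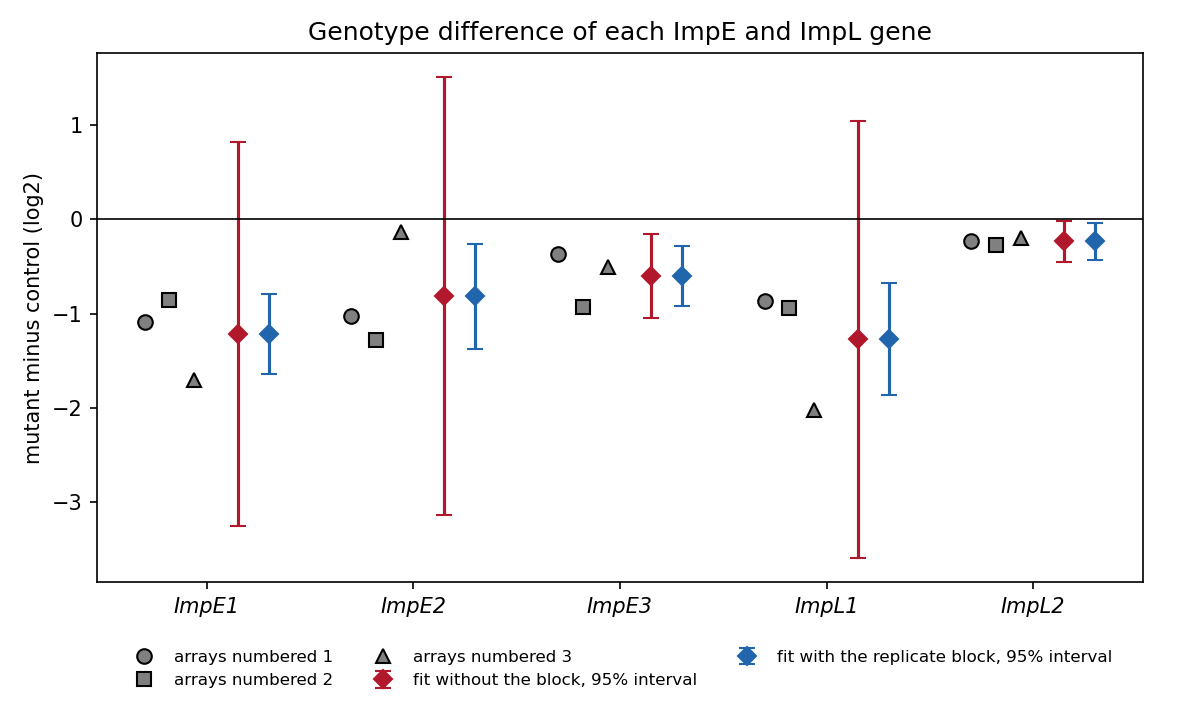
Mutant minus control on the log2 scale for each gene, in each pair of arrays with the same number (grey) and in the limma fits without and with the replicate block (diamonds, with 95% intervals). All grey points lie below 0, and the intervals of ImpE1, ImpE2 and ImpL1 cross 0 without the block and lie below 0 with it.

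Arrays numbered 3 held far less ImpE1, ImpE2 and ImpL1 RNA than arrays numbered 1, in both genotypes. With genotype in the limma fit, 3 of the 5 genes were called lower in arrays numbered 3 than in those numbered 1, where 8.25% of all genes were called and 3.35% were called lower. The log2 difference was -2.93 for ImpE2 (SE 0.27, limma adjusted p = 0.0155), a 7.61-fold lower level with a 95% interval from 4.74-fold to 12.2-fold. ImpL1 differed by -2.56 (SE 0.29, adjusted p = 0.0193), or 5.91-fold. ImpE1 differed by -2.44 (SE 0.21, adjusted p = 0.0147), or 5.44-fold. These 3 were more than 4-fold lower, as were 1.31% of all genes. ImpE3 differed by -0.42 (SE 0.16, adjusted p = 0.166) and ImpL2 by 0.15 (SE 0.10, adjusted p = 0.379), and neither was called. These fits rest on 2 arrays for each number, and without the genotype term limma called 0 of 5 and 0 of all genes, with 3 of 5 and 2770 of all genes at an unadjusted p under 0.05. Without control replicate 1 the adjusted p of ImpE2 was 0.0528.

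The size of this difference was not the same in the 2 genotypes, with 1 array behind each value and no test. For ImpL1 it was -3.14 in the mutant and -1.98 in the control. For ImpE1 it was -2.75 in the mutant and -2.14 in the control, while for ImpE2 it was the smaller in the mutant, -2.48 against -3.37. ImpE3 differed by -0.49 and -0.35, and ImpL2 by 0.17 and 0.14.

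Arrays numbered 2 were nearer to those numbered 1. Between them 0 of 5 genes and 0 of all genes (0.0%) were called, and 1 of the 5 had an unadjusted p under 0.05, beside 1396 of all genes. That gene was ImpE2, with a log2 difference of -1.10 (SE 0.27, limma adjusted p = 0.418), and its values in arrays numbered 2 lay between those in arrays numbered 1 and 3 in both genotypes. ImpL1 differed by -0.03 (SE 0.29) and ImpE1 by -0.45 (SE 0.21). Between arrays numbered 3 and 2 limma called 2 of 5 genes lower, ImpL1 by -2.53 (SE 0.29, adjusted p = 0.0464) and ImpE1 by -1.99 (SE 0.21, adjusted p = 0.0408), where 0.492% of all genes were called and 0.484% were called lower. ImpE2 differed by -1.82 (SE 0.27, adjusted p = 0.0753).

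Other measures moved with the array numbers. Markers of epidermis and cuticle, 5 of 5 measured, were called lower by limma in arrays numbered 3 than in those numbered 1 in 4 of 5 cases, from kkv, the epidermal chitin synthase gene, at -0.63 to the cuticle gene Cpr65Eb at -3.13. Lcp65Ad differed by -3.42 and was not called (adjusted p = 0.0887). The summed level of this list, as the log2 of summed linear values, was 10.9, 10.1 and 9.46 in mutant arrays 1, 2 and 3, and 11.8, 10.4 and 9.10 in the control arrays, and 0 of the 5 markers were below the lower quartile of all genes. Cpr65Eb, Cpr66Cb and TwdlR in this list were put there because they were known to differ between these arrays. Their calls were thus fixed in advance, and the count and summed level of the list are a description only. Of 4 neuron markers, 2 were called higher in arrays numbered 3. The summed level of the neuron markers was 9.80, 9.77 and 10.3 in the mutant arrays and 9.41, 9.79 and 10.2 in the control arrays. Of the measured markers of muscle, fat body, hemocyte and gut, 0 were called in either direction between arrays numbered 3 and 1. Of all 11983 genes, 588 were called higher and 401 lower in arrays numbered 3 than in those numbered 1. The gap between 3′ and 5′ probe sets of actin, a sign of RNA quality, was 2.92 and 2.91 in the arrays numbered 1 and between 2.10 and 2.36 in the other arrays. The part of these measures in the values of the Imp genes was not tested.

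The 4 probe sets of ImpE1 fell into 3 that varied together and 1 that did not. Probe set 1625625_at gave the values above. Probe set 1634661_at read 6.64, 6.0 and 4.91 in mutant arrays 1, 2 and 3, and 7.84, 6.52 and 5.24 in the control arrays. Probe set 1631375_a_at read 4.78, 5.11 and 3.83, and 6.05, 5.52 and 3.96. Both were lower in the mutant in 3 of 3 pairs and lowest in the arrays numbered 3.

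With all probe sets in the limma fit, arrays numbered 3 differed from those numbered 1 by -2.17 (SE 0.21, adjusted p = 0.0151) for 1634661_at and by -1.52 (SE 0.26, adjusted p = 0.034) for 1631375_a_at. The genotype differences were -0.68 (SE 0.71) and -0.60 (SE 0.58) by limma, smaller than that of the brightest probe set, and neither was called. With the 4 probe sets averaged, the genotype difference of ImpE1 was -0.58 (SE 0.52). In the pair numbered 3 they differed by -0.33 and -0.14, where 1625625_at differed by -1.70. Probe set 1634617_at lay between 2.92 and 3.30 in the 6 arrays, below the lower quartile of all probe sets in every array (3.69 to 3.79), and its genotype difference was 0.17 (SE 0.12). Which transcripts or exons each probe set matches was not analysed here. Over the 6 arrays the brightest probe set correlated with the others at 0.913 (1634661_at), 0.912 (1631375_a_at) and -0.325 (1634617_at).

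**Figure D3:**
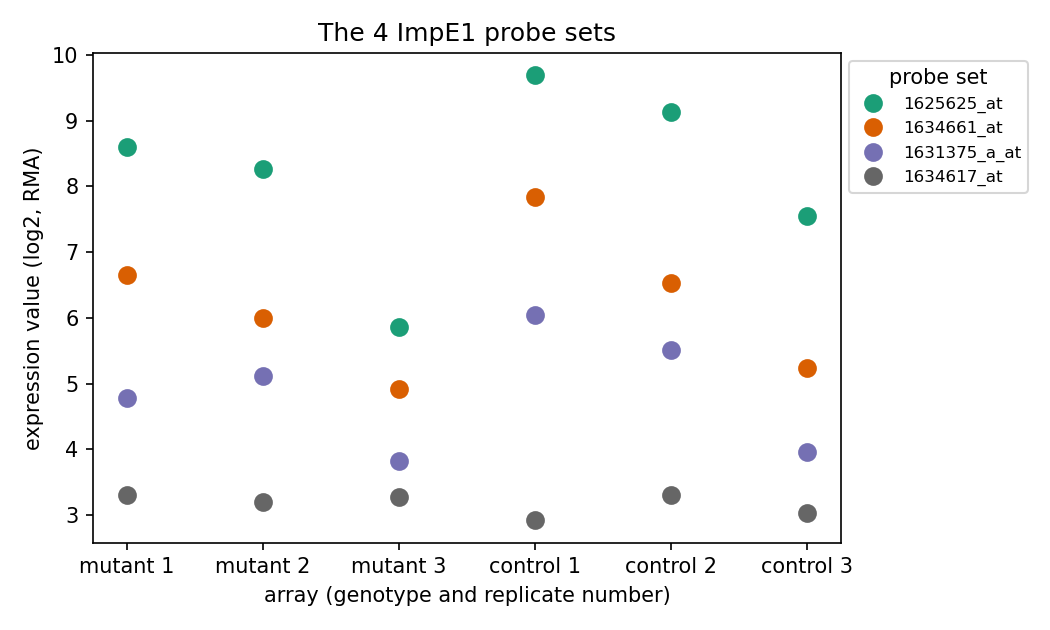
Log2 RMA values of the 4 ImpE1 probe sets in the 6 arrays. In 3 probe sets the array numbered 3 is the lowest of each genotype, and 1634617_at stays between 2.92 and 3.30.

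Among the 5 genes, ImpE1 and ImpL1 had the most similar profile, with a Pearson r of 0.987 over the 6 arrays. ImpE2 correlated with ImpE1 at 0.909 and with ImpL1 at 0.861. ImpE3 lay between 0.730 and 0.795 with these 3 genes. ImpL2 correlated at 0.065 with ImpE1, at -0.130 with ImpE2 and at 0.0755 with ImpL1, and at 0.529 with ImpE3. These values describe 6 arrays that share 3 numbers and 2 genotypes.

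The genes with the most similar profiles were sought among the 1137 genes, the member itself left out, whose mean was above the median of all genes and whose SD was at least 0.3. For ImpE1 they were kkv, CG43333 and apn, each with r = 0.997. CG43333 read 7.52, 7.45 and 4.71 in mutant arrays 1, 2 and 3, and 8.74, 8.30 and 6.44 in the control arrays, a range like that of ImpE1. For ImpL1 they were Osi6, of the Osiris family of membrane proteins, with r = 0.997, tpr with 0.996 and CG3355 with 0.996. Osi6 read 12.9, 12.7 and 10.2 in the mutant arrays and 13.6, 13.4 and 12.0 in the control arrays, so that array 3 was again the low one in each genotype. For ImpE2 they were cysu (0.987), CG12723 (0.987) and CG12920 (0.984).

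The profile of ImpE3 was closest to that of CG14420 (r = 0.996), CG5391 (0.975) and nw (0.968), which were highest in control array 2 and lowest in mutant array 3, as ImpE3 was. CG14420 read 8.63, 7.87 and 7.44 in the mutant arrays and 9.37, 10.1 and 8.71 in the control arrays. The profile of ImpL2 was closest to those of CG6996 (r = 0.990), Ass, an enzyme gene of arginine synthesis (0.985), and Cow, which encodes a secreted carrier of Wingless (0.983). Cow read 5.54, 6.25 and 6.55 in the mutant arrays and 6.75, 7.87 and 8.21 in the control arrays, lower in the mutant in every pair and lowest in the array numbered 1 of each genotype. With 6 arrays many of the 1137 genes can reach such values of r, and nothing about shared function or control follows from them.

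Other genes of the ecdysone and insulin pathways were counted from lists, in which 41 of 56 genes were measured. The lists were chosen with earlier results of these data known. Between the genotypes limma called 0 of the 41 in either fit. An unadjusted p under 0.05 was found for 5 of them without the replicate block, beside 632 of all genes, and for 8 with it, beside 1339 of all genes. The median log2 difference was 0.01 over the 41 genes. Of 13 measured genes of the receptor and its response regulators 7 were lower and 6 higher in the mutant, with a median of -0.07. The listed genes Eip74EF, Eip75B and crol were not among those measured. The nuclear receptor gene Hr3 differed by -0.37 (SE 0.13) and Blimp-1, which encodes a transcriptional repressor, by -0.46 (SE 0.16). Eip93F, with the next smallest p of this list, was higher in the mutant, by 0.22 (SE 0.10), at a low mean of 3.46. Hr4, another nuclear receptor gene, had the largest difference in the list, -1.16 (SE 0.52), and is named after its values were seen. Its 3 mutant values, 5.06, 4.82 and 4.40, stood against 6.96, 6.02 and 4.79 in control arrays 1, 2 and 3, so that the pair numbered 3 differed least, as in ImpE2.

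Of 10 measured genes of ecdysone synthesis and turnover 5 were lower and 5 higher in the mutant. The smallest p was that of spok, which encodes an enzyme of ecdysone synthesis, with 0.59 (SE 0.16). Of 3 measured genes from other ecdysone puffs, MsrA, known as Eip71CD, differed by 0.83 (SE 0.30), and 0 of 3 were called. ImpL3, listed with them, was not among those measured. Among 6 measured genes of the ecdysis peptides and their receptors 5 were lower in the mutant, beside 6205 of all 11983 genes. Eh, the eclosion hormone gene, differed by -0.24 (SE 0.09).

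ImpL2 acts on the insulin-like peptides, and 9 of 15 listed genes of that pathway were measured. Of these 9 genes, 7 were higher in the mutant, beside 5778 of all 11983 genes. Limma called 0 of the 9, beside 0.159% of all genes, and 0 had an unadjusted p under 0.05. Their differences lay between -0.03 and 0.26, with a median of 0.10. The highest was that of Sdr, which encodes a secreted decoy of the insulin receptor, with 0.26 (SE 0.17). Ilp7, an insulin-like peptide gene, differed by 0.17 (SE 0.15).

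Between arrays numbered 3 and 1, limma called 4 of the 41 genes, 1 lower and 3 higher, beside 8.25% of all genes, a share near that of the list. None of the 41 was as far from 0 as ImpE1, ImpE2 and ImpL1, the furthest being Hr4 at -1.42 (SE 0.33, adjusted p = 0.0638). The ecdysone response genes br and ftz-f1, which encode transcription factors, were called higher in arrays numbered 3, by 0.96 (SE 0.18, adjusted p = 0.0402) and 0.66 (SE 0.10, adjusted p = 0.0304). So was InR, the insulin receptor gene, by 0.61 (SE 0.12, adjusted p = 0.0465). Cyp18a1, which encodes an ecdysone-inactivating enzyme, was called lower, by -0.49 (SE 0.10, adjusted p = 0.0469). EcR differed by 0.00 (SE 0.10). Leaving out mutant replicate 3, control replicate 1 or control replicate 3 leaves 1 array for that number. The 4 calls did not hold in those fits, where calls over all genes fell as well. With the probe sets of each gene averaged limma called 1 of the 41, beside 827 of all genes.

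**Figure D4:**
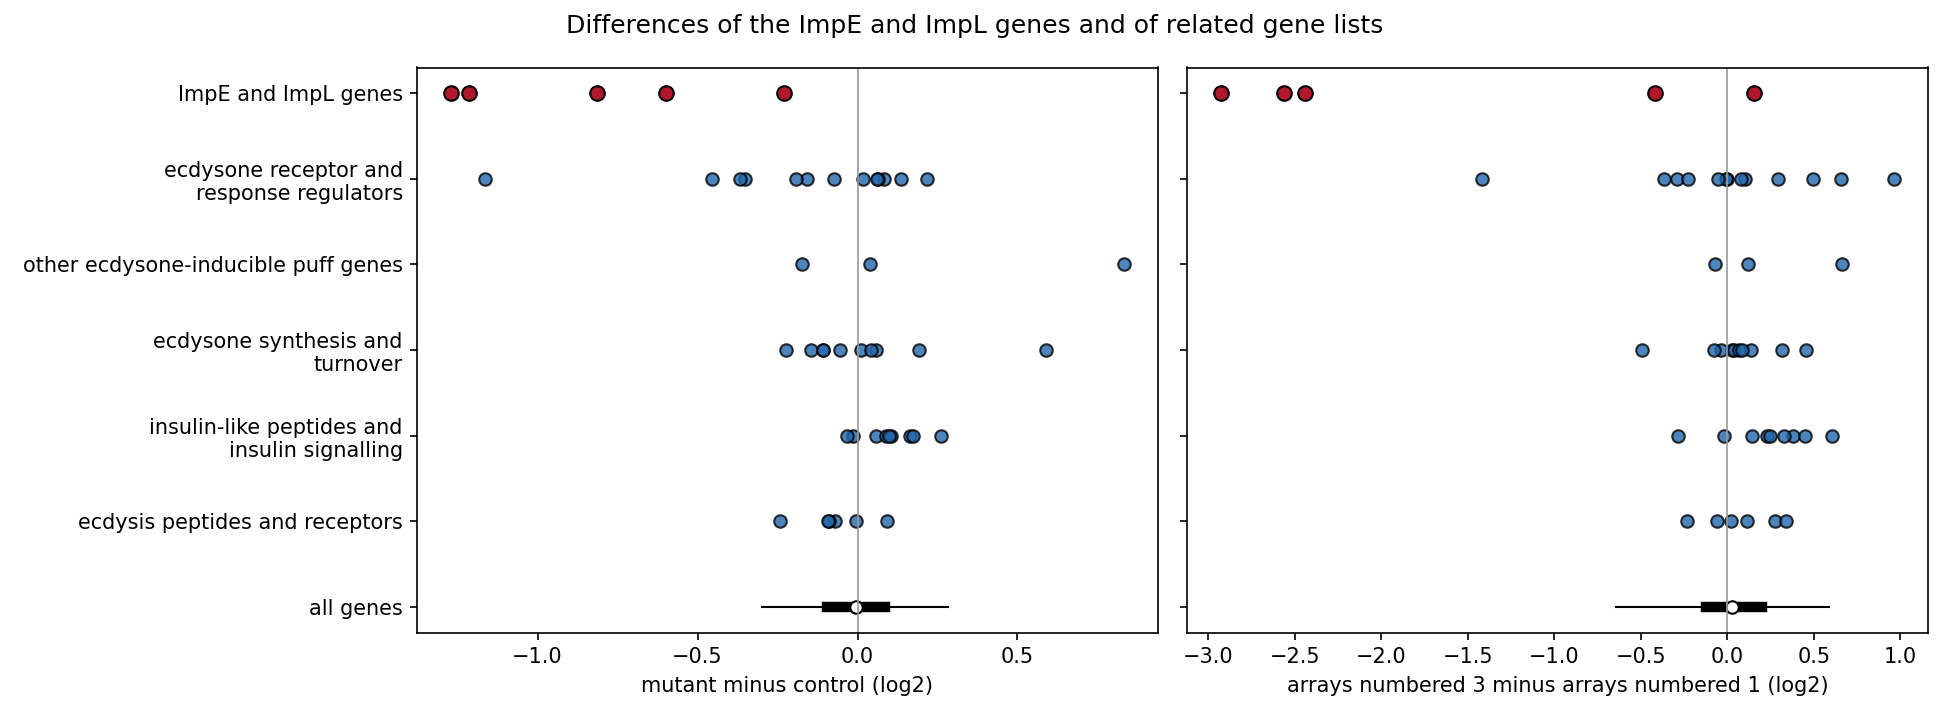
Log2 differences of the 5 Imp genes (red) and of the measured genes of 5 pathway lists (blue), between genotypes (left) and between arrays numbered 3 and 1 (right), one point per gene, with different scales on the 2 axes. For all genes the circle is the median, the thick bar the middle 50% and the thin bar the range from percentile 5 to 95. ImpE1, ImpE2 and ImpL1 lie between -2.93 and -2.44 on the right.

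ImpE1, ImpE2, ImpL1 and ImpL2 lie on chromosome arm 3L and ImpE3 on 3R in the NCBI annotation of Release 6, while Kdm4A lies on 2R. In the sorted order of listed start positions, 2 measured genes on each side were compared with each Imp gene. Their distances to the Imp genes were not examined, so they may not be true neighbours. Of these 20 genes limma called 0 between the genotypes, beside 0.159% of all genes. An unadjusted p under 0.05 was found for 2, beside 632 of 11983 genes, and the median difference of the 20 genes was 0.06. Between arrays numbered 3 and 1 limma called 4 of the 20, beside 8.25% of all genes. In the listed order these were CG14107 by ImpL1 (-2.21, SE 0.12) and Cpr64Ad by ImpL2 (-1.33, SE 0.19). The others were CG2747 by ImpE3 (0.49, SE 0.10) and CG42554 by ImpE1 (0.88, SE 0.09). CG14107 thus differed in the same direction as ImpL1, while Cpr64Ad, a cuticle gene, differed where ImpL2 did not pass the test. The 4 measured genes listed around ImpE2 were not called, and lay between -0.38 and 0.10.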

How the data were processed

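Total RNA of whole 1st instar larvae, 3 arrays for each of 2 genotypes, was labelled with biotin, per the labels. Each deposited value is the RMA summary of 1 probe set, as the submitters' processing notes name it. The log2 scale of the deposited values was read from their range (2.43 to 14.7). Those notes name no software version. RMA gives all arrays a similar distribution of values and can hide changes common to most genes.

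Of 18952 probe sets, 183 were controls, 13647 named 1 gene, 402 several and 4720 none in the probe table of 2016. The probe set with the highest mean stood for each of 11983 genes, of which 11894 matched NCBI's Release 6 table by gene ID. Both comparisons were fitted over all genes with limma 3.58.1 in R 4.3.3 (lmFit, eBayes, two-sided, Benjamini-Hochberg over all genes). The number of arrays limits the precision. The p-values set each difference against the residual spread between these arrays, which limma moderates over all genes.

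The members, lists and alternatives were chosen with earlier results of these data known. Named genes were the 5 members, Kdm4A and the 3 genes closest in profile to each member. Also named were called genes listed around each member, called genes of each pathway list and up to 3 of its genes with the smallest p. The symbols of 5 listed genes were updated through synonyms, and 15 of 56 listed genes were not matched to a probe set naming 1 gene.

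Deviations from the group mean, over all genes, correlated at 0.684, 0.151 and 0.756 between arrays numbered 1, 2 and 3. Each was above 0.1, but the value for number 2 was weak. The main genotype fit has no pairing, and the fit with the number as a block is an alternative. Mutant 2 correlated more with control 1 (0.354). The pairing comes from the titles and these values. No 2 arrays were identical.

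The fit was tested on simulated data for the genotype comparison. Alternatives were 2 scalings, a filter keeping the upper 60% of genes, all or averaged probe sets, array weights, a robust prior with a trend, the replicate block or no genotype term, and leaving out arrays. Plots used matplotlib 3.10.9.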

Additional observations from a re-analysis of the deposited data

How the results depend on the processing

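Leaving out both arrays of a number, with or without the block, was chosen after seeing the data. Between the genotypes 0 of 5 Imp genes were called by limma, and 0 under all alternatives (0 to 0 with 1 array left out, and 0 with the replicate block, with all of the 5 at an unadjusted p under 0.05) except the replicate block without both arrays numbered 2. That fit called 1, ImpE1 (log2 difference -1.39, SE 0.17, adjusted p = 0.0375), with 1 residual degree of freedom per gene. The direction of each of the 5 genes held in all 20 alternatives, but many of these could not change it. The replicate block, the prior, the filter and the fit of all probe sets leave the log2 difference as it was. Leaving out both arrays of a number could not reverse it either, since the mutant was lower in every pair. With 1 array left out, which leaves the numbers unequal between the genotypes, the log2 difference ranged from -1.83 to -0.35 for ImpE1, from -1.78 to -0.09 for ImpE2, from -0.75 to -0.47 for ImpE3, from -1.93 to -0.24 for ImpL1 and from -0.28 to -0.19 for ImpL2. The values of ImpE1 and ImpL1 nearest to 0 came without mutant replicate 3, that of ImpE2 without control replicate 1 (it was -0.19 without mutant replicate 3), and the values furthest from 0 of these 3 genes came without control replicate 3. Of all genes 19 were called. The replicate block raised this to 98 and array weights to 82, the filter on dim genes, which tests fewer genes, lowered it to 11, and leaving out 1 array gave 5 to 18. Without both arrays numbered 1, 2 or 3 it was 0, 0 or 26 (441, 287 and 863 at an unadjusted p under 0.05), and with the block 89, 110 or 23. The pathway genes, 41 of them or 22 with the filter on dim genes, gave 0 calls between the genotypes under the same alternatives, the replicate block with and without both arrays of a number included, with 0 to 8 at an unadjusted p under 0.05 where arrays were left out. Between arrays numbered 3 and 1 the count of 3 Imp genes became 0 without the genotype term, where the genotype difference adds to the spread, and 2 to 3 with 1 array left out. The count of 4 pathway genes became 1 with averaged probe sets, beside 827 of all genes, and 0 without the genotype term, beside 0 of all genes. It became 5 with 1 array numbered 2 left out, beside 1257 of all genes. Fewer were called where 1 array was left for number 1 or 3, mostly beside fewer calls over all genes. Beyond these constructions the cause was not tested. Dim probe sets such as 1634617_at limit what can be seen.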
